A study of Mus musculus with 18 samples.

Results

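The genes C1qa, C1qb, C1qc, Csf1r, Cd68, Vcam1, Spic, Hmox1, Cd5l and Slc40a1 are known for high expression in macrophages of the spleen, and their levels are described here in CD4+ T cell preparations. They are 10 of 37991 counted genes, and they were chosen by their measured levels in these libraries, namely lower reads after culture with PI and lower reads in tolerized samples. All 10 passed the filter on low counts that left 17240 tested genes. The RNA came from splenic CD4 T cells, enriched by removing other cells, of Tg4-H2u mice whose T cells carry a transgenic receptor for a myelin basic protein peptide. There were 3 libraries in each of 6 groups. Naive mice had received PBS on the dosing schedule, and tolerized mice 7 escalating subcutaneous doses of the 4Y peptide every 3 to 4 days. A final injection of PBS (N0 and T0) or of 80 µg peptide (NAg and TAg) preceded harvest by 2 h, and other cells were kept for 2 h in culture with 20 ng/ml PMA and 2 µM A23187 (NPI and TPI). Mice of both sexes were used, from 6 weeks of age. No group was cultured without PI, so culture and PI cannot be told apart.

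Macrophages of the splenic red pulp take up aged red blood cells, break down their heme and release the iron. C1qa, C1qb and C1qc encode the chains of C1q, the first component of the classical complement pathway, and Cd5l encodes a protein secreted by tissue macrophages. Csf1r is the receptor on which most macrophages depend, Spic a transcription factor needed for red pulp macrophages, Vcam1 an adhesion molecule, and Cd68 a lysosomal glycoprotein. Hmox1 encodes the enzyme that opens heme, and Slc40a1 encodes ferroportin, the exporter of iron. Hmox1, Cd68 and Vcam1 are also known outside macrophages. In bulk RNA, fewer cells of a type and less RNA per cell cannot be told apart.

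Total counts per library ranged from 10758571 to 24119489. Counts were scaled by TMM to normalized counts, which are on the scale of reads in a library of average size, and all levels below are in this unit unless reads are named. The 8 T cell markers summed to between 17956 and 63069 in each library, whereas the 10 macrophage genes summed to between 230 and 2356. NAg replicate 1 held that highest sum, and its level was above that of either other NAg library in 9 of the 10 genes, all but Spic. Values without it are given beside the NAg results that it moved. Those on the overlap of TAg with NAg and on the difference between the responses to Ag were added after seeing the data. Reads of 4 Y-linked genes reached at least 5599 in all NPI and TPI libraries and at most 15 in N0 and NAg, so sex and PI cannot be told apart in naive cells. Above 1000 such reads were found in 2 T0 libraries and 1 TAg library, so T0:N0 and TAg:NAg also differ in sex for these libraries.

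C1qa, C1qb and C1qc lay side by side on chromosome 4 of NCBIM37, between positions 136436044 and 136454718, all on the minus strand. RefSeq promoters of GRCm38.p6 were at hand for C1qb, C1qc, Cd68, Spic and Cd5l, 5 of the 10 genes. The first 3 sequences belong to genes that were near 0 after PI, and the last to Cd68, which was not. They hold the 250 bases before the start site, 5′ to 3′ on the gene's strand, with the letters GAGGAA or their reverse complement in capitals. GAGGAA is the core that PU.1 and Spi-C bind. C1qb is at chr4:136886201-136886450 (minus), C1qc at chr4:136892915-136893164 (minus), Cd5l at chr3:87357631-87357880 (plus) and Cd68 at chr11:69666171-69666420 (minus).
C1qb: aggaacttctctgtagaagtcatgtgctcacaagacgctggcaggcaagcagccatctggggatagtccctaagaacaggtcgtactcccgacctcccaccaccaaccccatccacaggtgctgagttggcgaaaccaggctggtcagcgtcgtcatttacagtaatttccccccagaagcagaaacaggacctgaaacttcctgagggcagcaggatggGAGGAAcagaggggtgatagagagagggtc
C1qc: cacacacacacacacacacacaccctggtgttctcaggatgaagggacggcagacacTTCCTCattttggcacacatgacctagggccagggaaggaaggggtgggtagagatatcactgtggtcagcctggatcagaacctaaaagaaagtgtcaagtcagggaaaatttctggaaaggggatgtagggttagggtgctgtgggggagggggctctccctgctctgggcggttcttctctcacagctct
Cd5l: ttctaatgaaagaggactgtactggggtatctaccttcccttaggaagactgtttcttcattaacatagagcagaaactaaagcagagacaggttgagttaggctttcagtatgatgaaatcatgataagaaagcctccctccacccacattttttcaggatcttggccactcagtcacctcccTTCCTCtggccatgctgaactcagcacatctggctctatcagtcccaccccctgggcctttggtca
Cd68: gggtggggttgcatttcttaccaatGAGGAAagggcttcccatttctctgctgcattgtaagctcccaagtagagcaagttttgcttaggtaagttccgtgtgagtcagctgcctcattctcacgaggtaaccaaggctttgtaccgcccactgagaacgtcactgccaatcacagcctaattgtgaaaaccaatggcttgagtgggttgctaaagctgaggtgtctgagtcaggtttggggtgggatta
GAGGAA was found once in each of these 4 windows and not in that of Spic. TGANNNNGC, a loose form of the core of the antioxidant response element, was found in those of C1qb, Cd5l and Cd68 and in 35.2% of all windows. On either strand GAGGAA occurred in 23.3% of the 32851 promoter windows of this length. The match lay on the gene's strand from 30 to 25 bases upstream in C1qb and from 225 to 220 in Cd68. It lay on the other strand from 193 to 188 bases upstream in C1qc and from 66 to 61 in Cd5l. These are matches of letters and say nothing of binding.

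**Figure D1:**
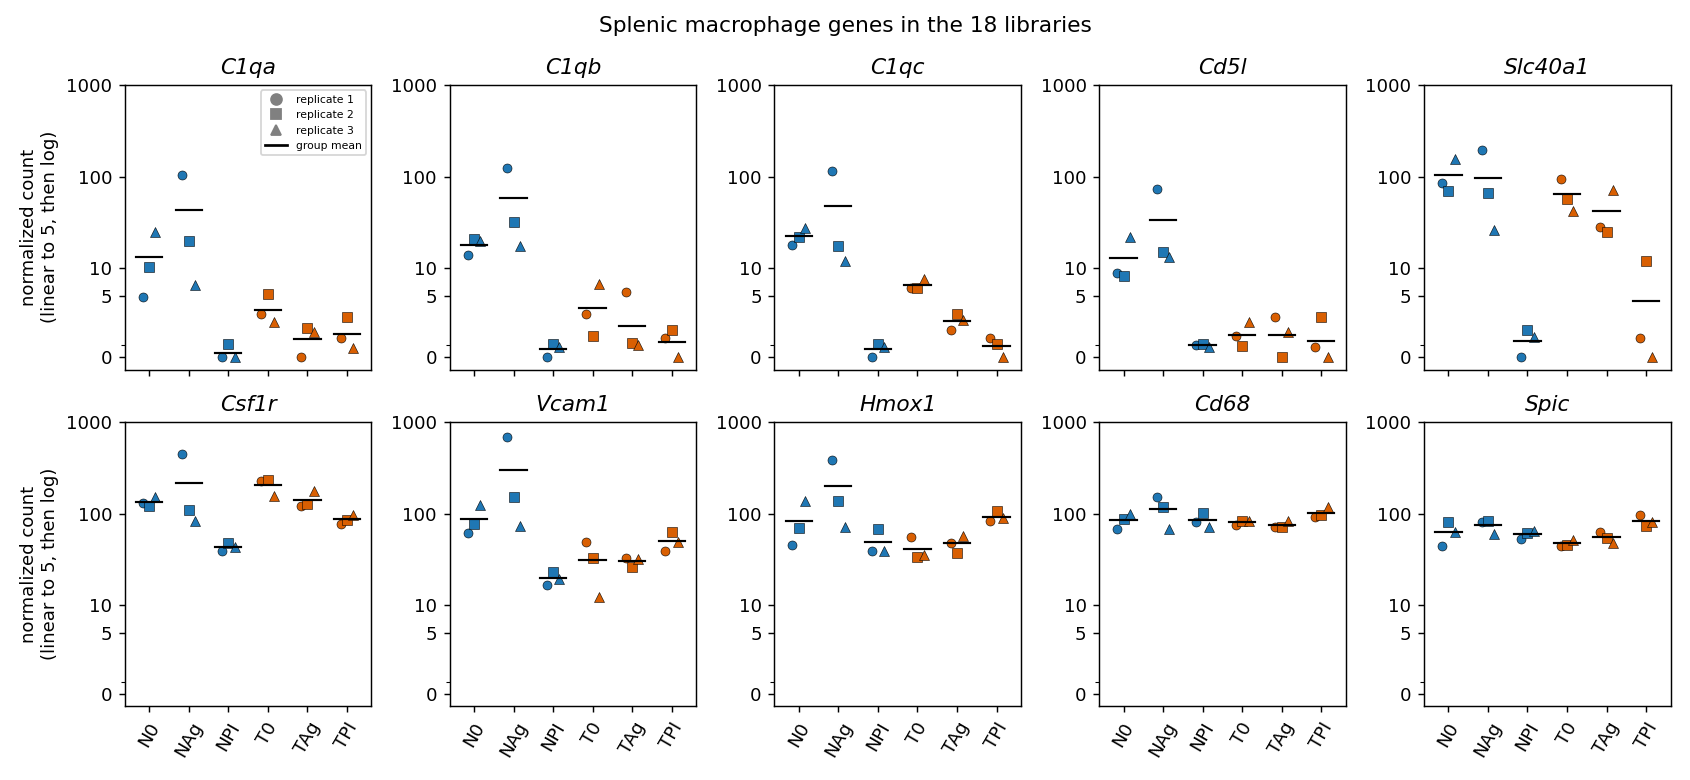
Normalized count of each gene (y axis, linear to 5 and logarithmic above) in the 3 libraries of each of the 6 groups (x axis, naive in blue and tolerized in orange), with marker shapes for replicate numbers and black bars for group means. C1qa, C1qb, C1qc, Cd5l and Slc40a1 drop to at most 12.1 after PI, whereas Cd68 and Spic are at 44.2 or higher in every library.

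In resting naive cells the 10 genes were read at low to moderate levels, and the order of the levels was compared per kb of merged exons. Cd68 had the highest group mean in N0, at 67.1 ± 12.7 per kb (SD, n = 3), and Cd5l the lowest at 6.40 ± 3.74. Between them came Hmox1 (38.8), Slc40a1 (30.7), Csf1r (25.7), Vcam1 (17.9), C1qb (16.7), Spic (16.4), C1qa (12.9) and C1qc (11.7). The libraries of every gene overlapped those of the next gene in this order, so neighbours did not differ beyond their spread. In NAg too every gene overlapped the next, whereas the order had gaps in T0, TAg, NPI and TPI. In NPI, Cd68, Hmox1, Spic, Csf1r and Vcam1 followed each other without overlap, from 67.0 ± 12.2 per kb in Cd68 down to 4.02 ± 0.66 in Vcam1. Below them C1qb, Cd5l, Slc40a1, C1qa and C1qc overlapped at 0.34 to 0.60 per kb.

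The C1q chains were low in N0 and nearly absent from NPI. C1qa had normalized counts of 4.95, 10.4 and 24.8 in N0, of 104, 19.97 and 6.60 in NAg, and of 3.54, 5.30 and 2.88 in T0. In TAg it had 0, 2.38 and 2.05, in NPI 0, 1.10 and 0, and in TPI 1.62, 3.29 and 0.73. NAg replicate 1 stood above all other libraries, and N0 overlapped T0 only through its lowest library. C1qb was at 13.9, 20.9 and 19.8 in N0, at 126, 31.7 and 17.6 in NAg, and at 3.54, 1.77 and 6.71 in T0. In TAg it was at 5.50, 1.19 and 1.02, in NPI at 0, 1.10 and 0.85, and in TPI at 1.62, 2.20 and 0. C1qb in all 9 tolerized libraries was below all 6 naive libraries that had not been cultured. C1qc had 17.8, 21.9 and 27.8 in N0, 115, 17.6 and 12.1 in NAg, and 6.19, 6.18 and 7.67 in T0. It had 2.20, 3.58 and 3.07 in TAg, 0, 1.10 and 0.85 in NPI, and 1.62, 1.10 and 0 in TPI. T0, TAg and TPI thus took separate ranges for C1qc in descending order, each resting on at most 8 reads per library.

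Cd5l, which lies on chromosome 3 (87161803 to 87174996, plus strand, NCBIM37), behaved much like C1q. It was at 8.92, 8.35 and 21.8 in N0, at 73.1, 15.3 and 13.2 in NAg, and at 1.77, 0.88 and 2.88 in T0. It was at 3.30, 0 and 2.05 in TAg, at 1.04, 1.10 and 0.85 in NPI, and at 0.81, 3.29 and 0 in TPI. No tolerized or PI library reached the lowest N0 library. Slc40a1, on chromosome 1 (45964915 to 45982439, minus strand), kept a moderate level in every group outside culture. Its values were 85.2, 69.9 and 156 in N0, 198, 65.8 and 26.4 in NAg, 93.8, 57.4 and 42.2 in T0, and 28.6, 25.0 and 71.7 in TAg. In NPI they were 0, 2.20 and 1.70, and in TPI 1.62, 12.1 and 0. The PI libraries lay below all others, and naive and tolerized libraries overlapped.

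Csf1r was at 131, 121 and 151 in N0, at 446, 109 and 83.6 in NAg, and at 39.5, 48.4 and 43.3 in NPI. In tolerized cells it was at 226, 234 and 153 in T0, at 120.0, 128 and 178 in TAg, and at 77.6, 85.6 and 97.3 in TPI. T0 lay above N0 and TPI above NPI without overlap, opposite to the order seen for C1q at rest. The T0 libraries with Y-linked reads were those at 226 and 234. The T0 library without such reads, at 153, was just above the highest N0 library, at 151, and N0 had none with them. In TAg the library with Y-linked reads was at 178 and those without at 120.0 and 128. The part of sex in the level of Csf1r was not tested. Csf1r shares 871 exonic bases with Hmgxb3 on the other strand, and reads of both cannot be told apart since the strand setting of the counts is not stated. Vcam1, on chromosome 3 (115812938 to 115832606, minus strand), was at 61.4, 77.3 and 125 in N0, at 675, 152 and 72.6 in NAg, and at 16.6, 23.1 and 19.5 in NPI. It was at 48.6, 32.7 and 12.5 in T0, at 33.0, 26.2 and 31.8 in TAg, and at 38.8, 63.7 and 48.6 in TPI. At rest the tolerized libraries were below the naive libraries, and after PI they were above them.

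Hmox1, Cd68 and Spic did not follow C1q into low values after PI. Hmox1, on chromosome 8 (77617490 to 77624495, plus strand), was at 45.6, 68.9 and 137 in N0, at 385, 139 and 71.5 in NAg, and at 39.5, 68.2 and 39.0 in NPI. It was at 55.7, 33.6 and 35.5 in T0, at 47.3, 37.0 and 57.4 in TAg, and at 82.4, 105 and 90.0 in TPI. TPI exceeded T0, TAg and NPI in every library. Cd68, on chromosome 11 (69477715 to 69479655, minus strand), ranged over all 18 libraries from 67.4 to 153, and its group means from 75.4 in TAg to 113 in NAg. Its TPI libraries, at 92.1, 95.5 and 118, lay above T0 at 75.2, 83.9 and 83.4. Spic, on chromosome 10 (88137517 to 88147760, minus strand), ranged from 44.2 to 96.9. Its TPI libraries, at 96.9, 72.4 and 80.6, were above T0 at 44.2, 45.9 and 51.8 and above NPI at 53.0, 61.6 and 65.4.

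Tolerized against naive cells and PI against resting cells are the contrasts on which the genes were chosen, so these values are a description without a test. In NPI:N0, 7 of the 10 genes were lower without overlap (C1qa, C1qb, C1qc, Csf1r, Vcam1, Cd5l and Slc40a1), against 35.3% of all tested genes, and none was higher without overlap, against 31.2%. Pooled over the 3 libraries, Slc40a1 had 4 reads in NPI and 310 in N0, a ratio of 79.4-fold with a 95% exact counting interval of 30.7 to 293. C1qc, with 2 and 67 reads, was 34.3-fold lower (9.14 to 289), and C1qb, with 2 and 54, 27.7-fold lower (7.30 to 234). C1qa had 1 and 40 reads, a ratio of 41.0 (6.95 to 1659), and Cd5l 3 and 39 reads, a ratio of 13.3 (4.23 to 67.4). These intervals cover counting error only. Vcam1 and Csf1r were lower by less, with fitted log2 ratios of -2.15 ± 0.81 (SE) and -1.62 ± 0.54. Cd68 (-0.01 ± 0.22) and Spic (-0.06 ± 0.21) had almost equal means in both groups, and Hmox1 was at -0.79 ± 0.57. The fitted median of the 10 genes was -2.86, beside -0.06 for all tested genes.

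In TPI:T0 the genes went in both directions. C1qc, Csf1r and Slc40a1 were lower without overlap, 3 of 10 against 38.8% of tested genes, and Cd68, Spic and Hmox1 were higher without overlap, 3 of 10 against 33.7%. Slc40a1 had 13 reads in TPI and 215 in T0, a 17.6-fold ratio (10.1 to 33.7), and 11 of the 13 reads were in TPI replicate 2. The fitted log2 ratio of Slc40a1 was -4.05 ± 1.02, and leaving out 1 library at a time gave -6.19 to -3.36. C1qc had 3 and 22 reads, a ratio of 7.82 (2.35 to 40.8). Among the T0 libraries, the 2 with Y-linked reads had Slc40a1 at 93.8 and 57.4 and the library without them 42.2, all above the TPI libraries. Hmox1 was 1.14 ± 0.57 higher in TPI on the log2 scale, Spic 0.82 ± 0.20 and Cd68 0.34 ± 0.21. Scaled by library totals alone these became 0.34, 0.02 and -0.46, since this scaling shifts the median of all tested genes to -0.92. The median of the 10 genes was -0.87, beside -0.10 for all tested genes, and was -1.45 without TPI replicate 2 and -0.33 without TPI replicate 3.

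In T0:N0, C1qb, C1qc, Cd5l and Vcam1 were lower without overlap, 4 of 10 against 21.8% of tested genes, and Csf1r alone was higher, 1 of 10 against 13.1%. Their fitted log2 ratios were -2.17 ± 0.77 for C1qb, -1.74 ± 0.71 for C1qc, -2.76 ± 0.85 for Cd5l, -1.48 ± 0.74 for Vcam1 and 0.61 ± 0.47 for Csf1r. C1qa (-1.74 ± 0.97), Hmox1 (-1.01 ± 0.58), Slc40a1 (-0.68 ± 0.68), Spic (-0.41 ± 0.21) and Cd68 (-0.06 ± 0.22) overlapped between both groups. The median of the 10 genes was -1.24, beside -0.08 for all tested genes, and -0.70 without N0 replicate 3. In TAg:NAg, C1qa, C1qb, C1qc, Cd5l, Vcam1 and Hmox1 were lower without overlap, 6 of 10 against 22.9%, and none was higher without overlap, against 24.8%. The fitted ratio was -4.77 ± 1.08 for C1qa, where TAg held 4 reads and NAg 110, of which 87 were in NAg replicate 1. It was -4.43 ± 0.79 for C1qb, -3.97 ± 0.80 for C1qc, -4.11 ± 0.82 for Cd5l, -3.29 ± 0.74 for Vcam1 and -2.05 ± 0.56 for Hmox1. Without NAg replicate 1 the median of the 10 genes moved from -2.67 to -1.50, beside 0.01 for all tested genes with all libraries, and the ratio of Csf1r turned from -0.57 to 0.57. The ratios were then -3.06 ± 0.86 for C1qa, -3.19 ± 0.64 for C1qb, -2.28 ± 0.56 for C1qc, -2.87 ± 0.76 for Cd5l, -1.87 ± 0.42 for Vcam1 and -1.13 ± 0.42 for Hmox1. These 6 genes were still lower without overlap, against 27.6% of tested genes when 3 libraries are set against 2, and Csf1r was higher without overlap, against 30.2%.

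After PI the tolerized libraries held more of several genes than the naive libraries. In TPI:NPI, Csf1r (log2 0.99 ± 0.56), Vcam1 (1.33 ± 0.84), Spic (0.47 ± 0.20) and Hmox1 (0.93 ± 0.57) were higher without overlap, 4 of 10 against 24.1% of tested genes, and none was lower without overlap, against 26.4%. C1qa, C1qb, C1qc and Cd5l had 1 to 3 reads over the NPI group and 3 to 6 over the TPI group. The ratio of C1qa, 6 reads to 1, was 5.19 with an interval of 0.63 to 239, and those of C1qb (1.73, 0.25 to 19.1), C1qc (1.30, 0.15 to 15.5) and Cd5l (1.15, 0.20 to 7.87) were as wide. A difference in these 4 genes was not detectable at this depth.

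**Figure D2:**
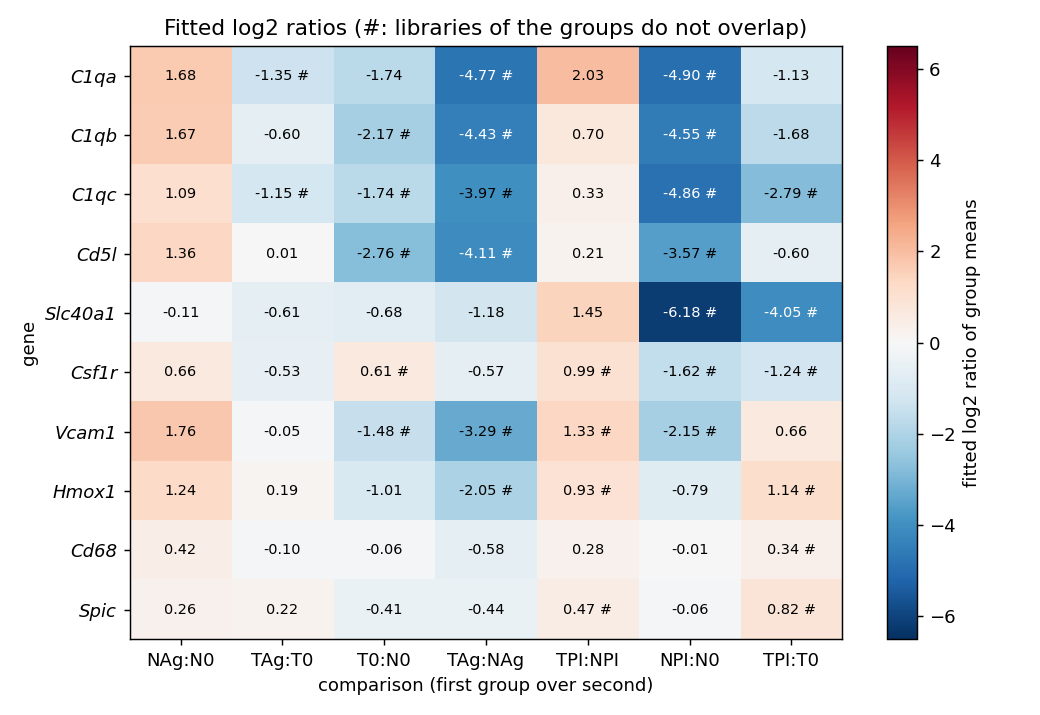
Fitted log2 ratio of group means (color and printed value) for each gene (y axis) in 7 comparisons (x axis, first group over second), with # where the libraries of both groups do not overlap. C1qa to Slc40a1 are blue in NPI:N0, down to -6.18, whereas Cd68 and Spic are near 0 there.

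The response to Ag was not itself a contrast on which the genes were chosen, so it was tested. Its libraries are among those used for that choice, so its p-values are not independent of the choice. In NAg:N0, C1qb rose by a log2 ratio of 1.67 ± 0.58 (adjusted p = 0.0175, edgeR quasi-likelihood test) and Vcam1 by 1.76 ± 0.65 (adjusted p = 0.0292). Thus 2 of 10 genes were called, against 65.5% of all tested genes, and 5 had an unadjusted p under 0.05. Leaving out NAg replicate 2, NAg replicate 3 or N0 replicate 3 gave 6, 8 and 5 called genes, and DESeq2 called 3. The share of all tested genes is not given for these fits or for the unadjusted p. These counts can thus not be set against 65.5%. Hmox1 (1.24 ± 0.53, adjusted p = 0.0544), Cd5l (1.36 ± 0.60, adjusted p = 0.0528) and C1qa (1.68 ± 0.76, adjusted p = 0.0627) did not pass. Hmox1 passed in DESeq2 (1.28, adjusted p = 0.0272), and with DESeq2's size factors in edgeR both Hmox1 (adjusted p = 0.0464) and Cd5l (adjusted p = 0.0441) passed. Slc40a1 had a ratio of -0.11 ± 0.67 (adjusted p = 0.899). For all 10 genes the NAg and N0 libraries overlapped. Without NAg replicate 1, C1qb was at 0.43 (adjusted p = 0.466) and Vcam1 at 0.34 (adjusted p = 0.463), and C1qa, C1qc and Csf1r turned to -0.03, -0.60 and -0.48. Csf1r was then called, at an adjusted p of 0.0486. Without N0 replicate 1, C1qb (adjusted p = 0.0731) and Vcam1 (adjusted p = 0.102) were not called, and without N0 replicate 2 Vcam1 was not (adjusted p = 0.0877). With library totals C1qb (adjusted p = 0.0631) and Vcam1 (adjusted p = 0.0829) were not called, nor with the 2 groups alone (adjusted p = 0.101 and 0.198).

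NAg replicate 1 exceeded the mean of both other NAg libraries 7.85-fold in C1qa, 5.10-fold in C1qb, 7.74-fold in C1qc, 5.14-fold in Cd5l and 6.02-fold in Vcam1. The excess was 4.62-fold in Csf1r, 4.29-fold in Slc40a1 and 3.66-fold in Hmox1, but 1.64-fold in Cd68 and 1.13-fold in Spic. Of 12966 tested genes with a mean of at least 10 in NAg, 0.764% were at least 3-fold above in this library, and the median ratio was 0.987. Its 12 markers of endothelium and stroma summed to 207, with 132 and 140 in the other libraries, and Emcn had no read in any of them. Its 10 erythroid markers summed to 397, with 108 and 264 in the others, its 7 monocyte markers to 536, with 344 and 407, and its 8 dendritic cell markers to 726, with 512 and 555. B cell markers (899) and neutrophil markers (294) lay between those of the other 2 libraries. The part of these cells in the result was not tested.

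In TAg:T0 none of the 10 genes was called by edgeR, none had an unadjusted p under 0.05, and DESeq2 called none, whereas edgeR called 59.8% of all tested genes. The largest fitted ratios were -1.35 ± 1.44 for C1qa (adjusted p = 0.448) and -1.15 ± 0.99 for C1qc (adjusted p = 0.341), from 4 to 22 reads in a group. Csf1r was at -0.53 ± 0.47 (adjusted p = 0.367) and Slc40a1 at -0.61 ± 0.73 (adjusted p = 0.504). When only T0 and TAg were fitted, Csf1r was called at -0.57 (adjusted p = 0.0345).

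Within a library, the genes were set against the geometric mean of C1qa, C1qb and C1qc, with 0.5 added to each value. In N0 the log2 ratio was 2.99 ± 0.48 for Csf1r (SD, n = 3), 2.54 ± 0.47 for Slc40a1, 2.33 ± 0.15 for Vcam1, 2.31 ± 0.28 for Cd68, 2.17 ± 0.28 for Hmox1, 1.87 ± 0.43 for Spic and -0.45 ± 0.45 for Cd5l. In NAg the ratio of Vcam1 was 2.64 ± 0.09, a narrow spread beside levels of 72.6 to 675, and its libraries lay just above those of N0. In T0 the ratio was higher than in N0 without overlap for Csf1r (5.34 ± 0.54), Cd68 (4.03 ± 0.20), Spic (3.26 ± 0.11) and Hmox1 (3.04 ± 0.47). Vcam1, at 2.47 ± 1.17, and Slc40a1, at 3.63 ± 0.72, overlapped with N0. C1q had lower means in T0 and was among the genes chosen for that, so a steadier gene rises in this ratio. Cd68 and Spic had fitted log2 ratios of -0.06 and -0.41 in T0:N0. The ratios to C1q were not set against all tested genes. Of all C1q reads, C1qc held 41.6% in N0 (exact 95% interval 33.9 to 49.6) and 45.8% in T0 (31.4 to 60.8), and C1qa 24.8% (18.4 to 32.3) and 27.1% (15.3 to 41.8). Together, T0 had 48 C1q reads and N0 161.

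**Figure D3:**
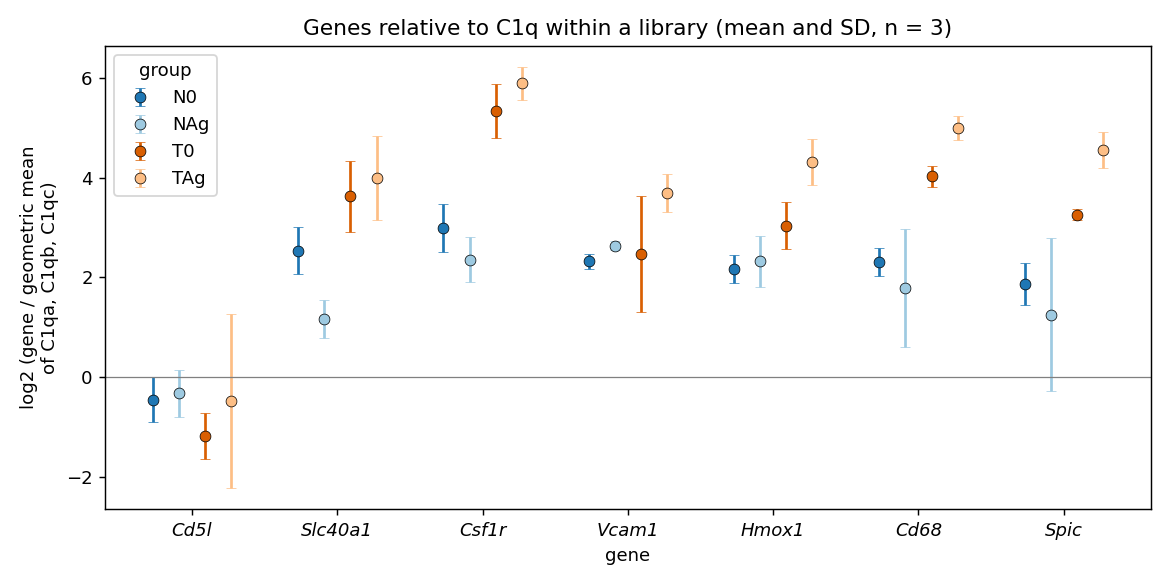
Log2 ratio of each gene to the geometric mean of C1qa, C1qb and C1qc in the same library (y axis) for 7 genes (x axis) in N0, NAg, T0 and TAg. Points are means and bars SDs over 3 libraries. Csf1r moves from 2.99 in N0 to 5.34 in T0, whereas Vcam1 is at 2.33 and 2.47.

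The genes whose profile over the 18 libraries was nearest to that of C1q were found by the root mean square difference of centered log2(normalized count + 1) values, among 12118 tested genes with a mean of at least 20. The nearest was Mrc1, the mannose receptor of macrophages, at 0.729, and the median of all candidates was 1.85. Its means were 49.4 in N0, 77.9 in NAg, 8.68 in NPI, 19.3 in T0, 7.26 in TAg and 7.01 in TPI, with 173 in NAg replicate 1. Then came Nudt17 (0.981), Paqr6 (1.06), Gm14296 (1.08), Tdrkh (1.08), Bhlha15 (1.09), Sh3bgrl2 (1.10) and Ephx3 (1.12), for which NAg replicate 1 was at 45.5 to 262. Of the listed genes, Cd5l was nearer than any of these at 0.688, and Vcam1 was at 0.959. Both were chosen on the same contrasts as C1q, so their closeness was in part fixed by that choice. Spic, at 1.71, had 3851 genes nearer than itself, and Cd68, at 1.64, had 2690.

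A further list of 27 genes known from macrophages, of which 26 were matched and 24 tested, was used beside the 10. Like the 10, it was chosen with earlier results of these data known, so it is not independent support for their pattern. Vsig4, a complement receptor of tissue macrophages, had no read in any library, and Ms4a7 had at most 5. In NPI:N0, 7 of 24 fell, against 32.7% of all tested genes, and 3 rose, against 28.6%. Fcna, a lectin of the complement system, had 58 reads in N0 and 1 in NPI (59.4-fold, 10.3 to 2387), and Mertk, a receptor for apoptotic cells, 38 and 1 (38.9-fold, 6.58 to 1578). Hpgd, a prostaglandin-degrading enzyme, had 22 reads in N0 and none in NPI, which is at least 7.51-fold lower against a floor of 3 reads over the group. Cd14, a coreceptor for lipopolysaccharide, rose from 2.71 ± 1.27 to 62.3 ± 18.6 (log2 4.46 ± 0.54, adjusted p = 4.52e-07). Siglec1, a sialic acid receptor, rose by 0.75 ± 0.25 (adjusted p = 0.0118), but was at 0.17 with library totals (adjusted p = 0.561) and was not called without NPI replicate 3 (adjusted p = 0.0568), N0 replicate 1 (adjusted p = 0.0705) or N0 replicate 3 (adjusted p = 0.0992).

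In TPI:T0, 7 of 24 fell, against 36.3%, and 4 rose, against 32.0%. Mertk had 16 reads in T0 and none in TPI (at least 5.69-fold lower), Fcna 19 and 1 (20.3-fold, 3.22 to 842), and Treml4 44 and 3 (15.6-fold, 5.02 to 78.8). Cd14 rose from 8.11 ± 2.43 to 137 ± 22.8, Clec4n by 2.18 ± 0.49 (adjusted p = 0.000416) and Timd4, a receptor for phosphatidylserine, by 2.03 ± 0.67 (adjusted p = 0.00961). Timd4 was not called with library totals (1.25, adjusted p = 0.113). Fcna was not called without TPI replicate 1, 2 or 3 or T0 replicate 1 or 2, each left out alone (adjusted p = 0.0507 to 0.0996). In TPI:NPI 2 of 24 were higher, against 18.2%, and 1 lower, against 19.7%. Cd14 was 1.15 ± 0.32 higher (adjusted p = 0.00721) and Lyz2 1.25 ± 0.29 higher (adjusted p = 0.00364). Cd14 thus had its highest group means in NPI and TPI, the groups with the fewest C1q reads.

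In T0:N0 only Lyz2, the lysozyme of myeloid cells, was called among the 24, with 1 higher against 8.42% and none lower against 12.0%. It went from 207 ± 54.5 in N0 to 1082 ± 189 in T0 (log2 2.38 ± 0.28, adjusted p = 7e-05). The 7 monocyte markers summed to 2407 to 2506 in T0 and to 345 to 646 in N0, and the 10 neutrophil markers to 1820 to 3197 and to 76.4 to 187. Monocytes also express Csf1r and Lyz2, which were higher in T0, and the part of these cells or of sex in these levels was not tested. In TAg:NAg, 13 of 24 were lower, against 18.5%, and 1 was higher, against 20.9%. Mertk (log2 -3.88 ± 0.86, adjusted p = 0.00167), Fcna (-3.87 ± 0.82, adjusted p = 0.0012) and Cd163 (-3.73 ± 0.95, adjusted p = 0.00368) were lowest, and the latter had 3 reads in TAg and 41 in NAg. Lyz2 was higher by 1.79 ± 0.28 (adjusted p = 0.000195). Without NAg replicate 1 the 13 became 5, of 23 tested, and without TAg replicate 2 they became 8. Shares of all tested genes in these fits are not given. With NAg replicate 1 left out, Mertk was at -2.88 (adjusted p = 0.00901), Fcna at -2.78 (adjusted p = 0.00377), Cd163 at -2.38 and not called (adjusted p = 0.0555), and Lyz2 at 2.07. With the 2 groups alone Fcna was not called (adjusted p = 0.0565). The median of the list moved from -1.01 to -0.38 without NAg replicate 1, beside 0.04 over all tested genes.

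In NAg:N0, 7 of 24 rose, against 32.1%, and 1 fell, against 33.4%, and without NAg replicate 1 these were 6 and 2 of 23 tested. Without NAg replicate 3, 11 rose. The shares of all tested genes without a library are not given. Marco, a scavenger receptor, had 11 reads in NAg, 7 of them in NAg replicate 1, and none in N0 (at least 4.21-fold higher). Timd4 rose from 2.05 ± 2.09 to 35.6 ± 21.6 (log2 4.05 ± 0.63, adjusted p = 3.71e-06) and Cd14 from 2.71 ± 1.27 to 43.7 ± 32.2 (3.95 ± 0.56, adjusted p = 3.16e-06). Without NAg replicate 1 both still rose, by 3.45 and 3.18. Lgmn, a lysosomal protease, fell by 0.87 ± 0.32 (adjusted p = 0.0237), but was not called without NAg replicate 2 (adjusted p = 0.102), NAg replicate 3 (adjusted p = 0.087) or N0 replicate 1 (adjusted p = 0.0509), nor without the low-count filter (adjusted p = 0.0543). In TAg:T0, 5 of 24 rose, against 29.9%, and 2 fell, against 29.8%. Timd4 (2.79 ± 0.64, adjusted p = 0.000525), Clec4n (2.21 ± 0.50, adjusted p = 0.000496) and Msr1 (1.34 ± 0.51, adjusted p = 0.0267) rose, and Nr1h3 fell by 1.66 ± 0.57 (adjusted p = 0.0152). Without TAg replicate 3 neither Msr1 (adjusted p = 0.0807) nor Nr1h3 (adjusted p = 0.0748) was called. Msr1 was not called either without T0 replicate 2 (adjusted p = 0.0986) or T0 replicate 3 (adjusted p = 0.0663), and Nr1h3 not without T0 replicate 1 (adjusted p = 0.066). Cd163, the receptor for haptoglobin with hemoglobin, had 35 reads in T0 and 3 in TAg (9.61-fold, 3.03 to 48.8). The median over the macrophage list was 0.68 in NAg:N0 and -0.47 in TAg:T0, beside 0.00 and -0.05 over all tested genes. The former was -0.01 without NAg replicate 1, beside -0.05 over all tested genes.

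**Figure D4:**
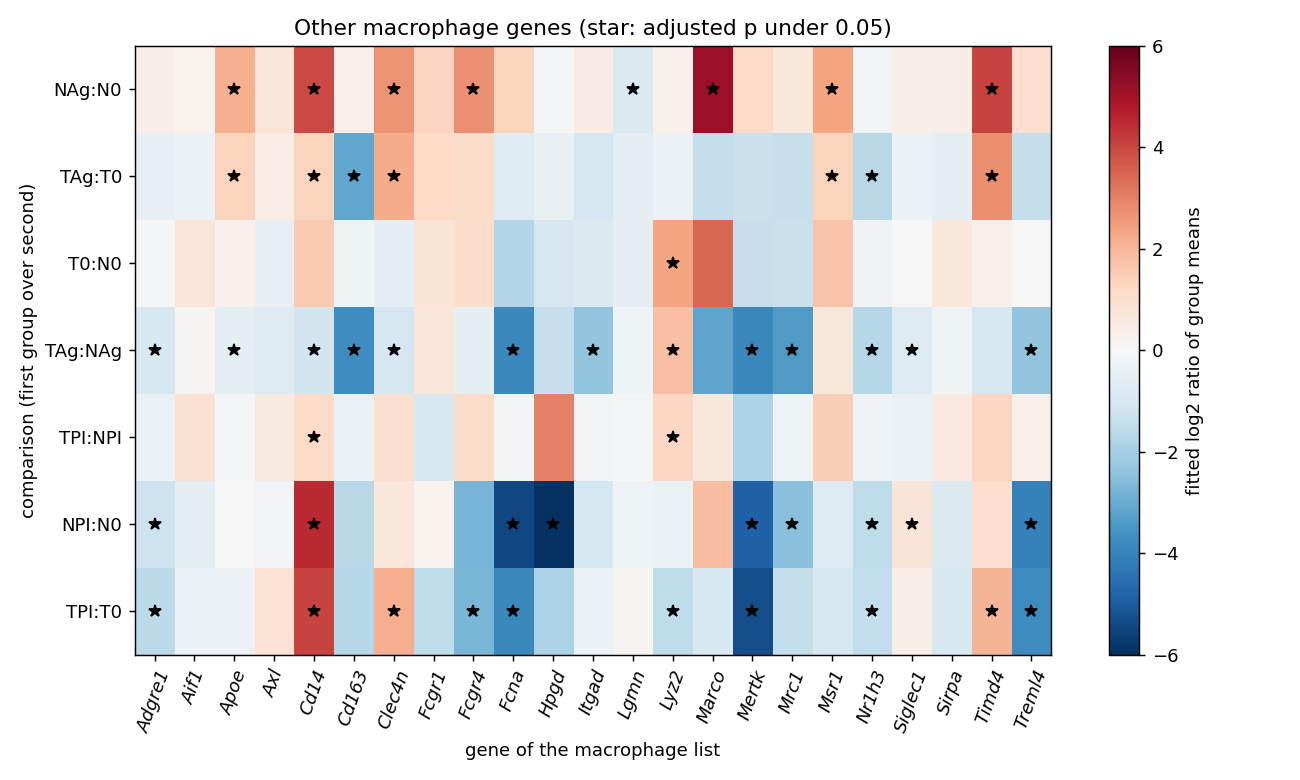
Fitted log2 ratio of group means (color) for the 24 tested genes of the macrophage list but 1 (x axis) in 7 comparisons (y axis), with a star at an adjusted p under 0.05. Cd14 is called higher in both PI comparisons, and Mertk and Fcna are called lower there.

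Around Hmox1 and Slc40a1, 18 other genes of heme and iron handling were counted and all were tested. These genes too were chosen with earlier results of these data known. They were at much higher sums than the macrophage genes, between 10878 and 41151 in each library, and T cells express many of them. In NAg:N0 7 of the 18 rose, against 32.1% of all tested genes, and 5 fell, against 33.4%. Both counts were the same without NAg replicate 1, for which no share of all tested genes is given. In TAg:T0 7 rose, against 29.9%, and 2 fell, against 29.8%. Tfrc, the transferrin receptor for iron uptake, rose from 891 ± 20.9 in N0 to 20721 ± 2868 in NAg (log2 4.54 ± 0.15, adjusted p = 9.95e-15) and by 3.39 ± 0.14 in TAg:T0. Bach1, a heme-binding repressor of Hmox1, rose by 2.06 ± 0.09 and 1.55 ± 0.09, and Slc25a37, an iron importer of mitochondria, by 1.45 ± 0.09 and 1.41 ± 0.09. In NAg:N0 the falls were led by Slc48a1, a heme transporter, by 1.21 ± 0.14, Slc11a2, an iron transporter, by 1.06 ± 0.09, and Blvra, a biliverdin reductase, by 0.64 ± 0.14. In TAg:T0 Slc11a2 fell by 0.91 ± 0.09 and Hmox2, the constitutive heme oxygenase, by 0.41 ± 0.10. Slc11a2 and Hmox2 share exonic bases with genes on the other strand.

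After PI, 6 of the 18 rose in NPI:N0, against 28.6% of all tested genes, and 8 fell, against 32.7%. In TPI:T0 6 rose, against 32.0%, and 5 fell, against 36.3%. Bach1 (2.04 ± 0.09 and 2.61 ± 0.09) and Tfrc (1.98 ± 0.14 and 2.05 ± 0.14) rose in both, Fth1, the ferritin heavy chain, rose by 1.46 ± 0.08 in NPI:N0, and Nfe2l2, an activator of Hmox1, by 1.49 ± 0.12 in TPI:T0. Blvra fell by 1.27 ± 0.14 and 1.29 ± 0.14, Aco1 by 0.86 ± 0.11 and 1.32 ± 0.11, and Ireb2 by 0.81 ± 0.07 in NPI:N0. Steap3, an iron reductase, fell by 2.35 ± 0.48 in TPI:T0. In these comparisons Slc40a1 was at most 12.1 in any PI library.

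Between cell states, 1 of the 18 was higher in T0:N0, against 8.42% of all tested genes, and 2 were lower, against 12.0%. In TAg:NAg 4 were higher, against 20.9%, and 5 lower, against 18.5%, and in TPI:NPI 3 were higher, against 18.2%, and 3 lower, against 19.7%. Steap3 was 1.98 ± 0.47 higher in T0, where the 10 erythroid markers summed to 298 to 2482, beside 47.0 to 230 in N0. Bach1 and Nfe2l2 were lower in T0 by 0.44 ± 0.09 and 0.41 ± 0.12. Nfe2l2 was not called with library totals (-0.30, adjusted p = 0.0851), without T0 replicate 2 (adjusted p = 0.0512) or without N0 replicate 2 (adjusted p = 0.0765). In TAg, Steap3 (1.58 ± 0.48), Blvrb (1.31 ± 0.47) and Slc48a1 (1.29 ± 0.14) were higher than in NAg, and Tfrc (-1.02 ± 0.13), Bach1 (-0.95 ± 0.09) and Nfe2l2 (-0.33 ± 0.12) lower. Steap3 and Blvrb are also erythroid genes, and the 10 erythroid markers summed to 128 to 1585 in TAg and to 108 to 397 in NAg. The part of erythroid cells in these levels was not tested. Without TAg replicate 3 Blvrb was at 0.62 (adjusted p = 0.311) and Steap3 at 1.07 (adjusted p = 0.104). Neither was called without NAg replicate 2 (adjusted p = 0.133 for Blvrb and 0.0663 for Steap3) or NAg replicate 3 (adjusted p = 0.129 and 0.0642). Nor was Blvrb called without the low-count filter (adjusted p = 0.0627) or with the 2 groups alone (adjusted p = 0.0861). Nfe2l2 was not called without TAg replicate 2 (adjusted p = 0.0694), TAg replicate 3 (adjusted p = 0.108) or NAg replicate 2 (adjusted p = 0.294), nor with library totals (adjusted p = 0.335). With NAg replicate 1 left out, the ratios were 2.35 for Steap3, 1.90 for Blvrb, 1.36 for Slc48a1, -1.12 for Tfrc, -0.99 for Bach1 and -0.36 for Nfe2l2, and 3 of the 18 were higher and 5 lower. In TPI, Slc48a1 (0.49 ± 0.13), Flvcr1 (0.31 ± 0.08) and Hmox2 (0.26 ± 0.10) were higher than in NPI, and Aco1 (-0.53 ± 0.12), Slc11a2 (-0.29 ± 0.09) and Fth1 (-0.23 ± 0.08) lower. Hmox2, Slc11a2 and Fth1 each lost the call without NPI replicate 1 (adjusted p = 0.0919, 0.0909 and 0.0989).

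Marker lists of other non-T cells, also chosen with earlier results of these data known, were counted in the same comparisons. Neutrophil markers summed to between 64.5 and 423 in naive libraries and to between 397 and 4435 in tolerized libraries. In NPI:N0, 6 of the 10 neutrophil markers and 3 of the 7 monocyte markers were called lower, against 32.7% of all tested genes, and in TPI:T0 8 of 10 and 6 of 7, against 36.3%. Called higher in NPI:N0 were 2 of the 10 neutrophil markers and 1 of the 7 monocyte markers, against 28.6%. In TPI:T0 no marker of either list was called higher, against 32.0%. The neutrophil sums were 1820 to 3197 in T0 and 397 to 676 in TPI, without overlap, and the monocyte sums 2407 to 2506 and 1101 to 1537. Monocyte markers summed to 564 to 830 in NPI and to 1101 to 1537 in TPI, where Csf1r was also higher. B cell markers summed to 365 to 1867 in N0 and to 610 to 1358 in NPI, and dendritic cell markers to 429 to 951 and to 709 to 987. Both ranges overlapped only through N0 replicate 1, and the other N0 libraries lay below all NPI libraries. The C1q chains did not overlap between N0 and NPI. In NPI:N0, 1 of 7 B cell markers was called higher and 1 lower, and 2 of 8 dendritic cell markers higher and none lower. The part of these cells in the levels of the 10 genes was not tested.

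**Figure D5:**
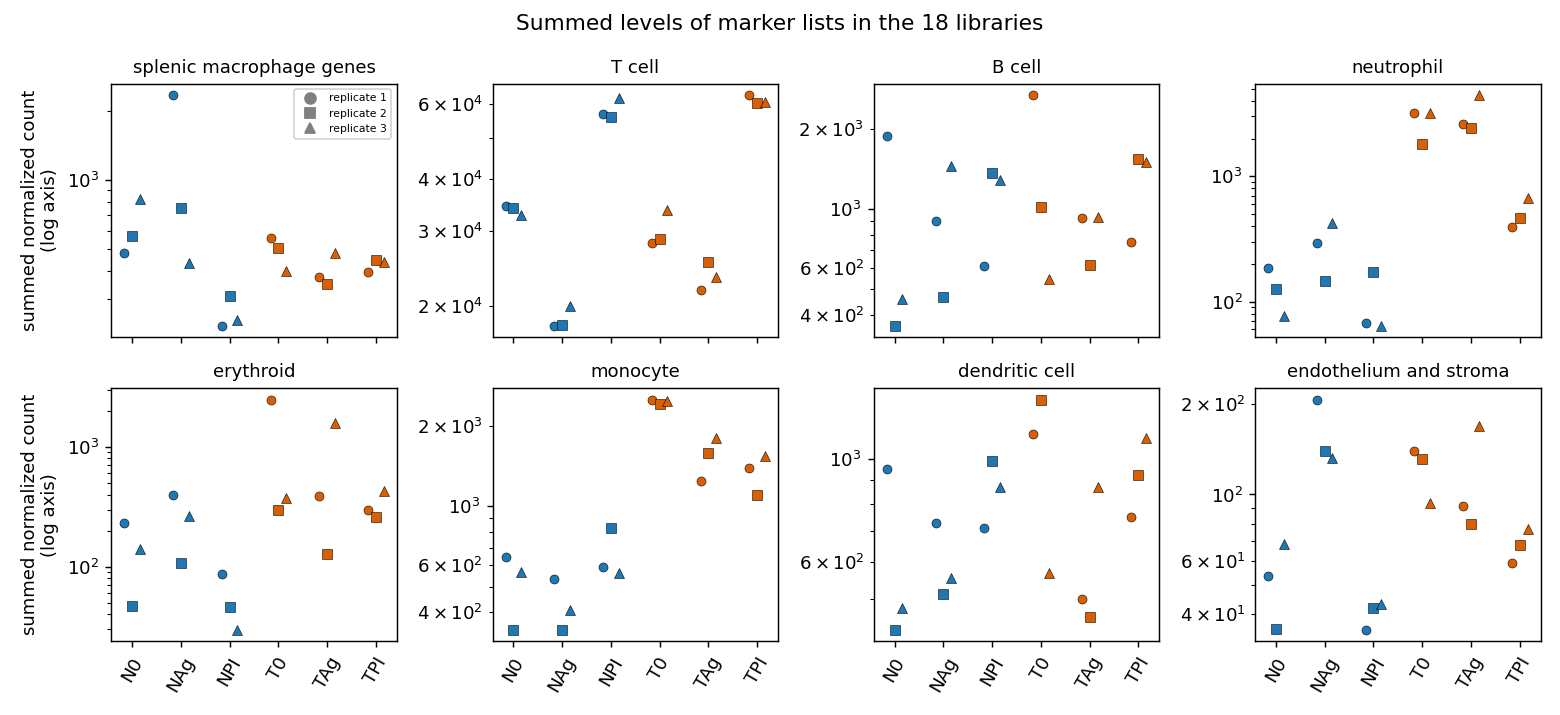
Summed normalized counts (y axis, log scale) of the 10 macrophage genes and of marker lists of 7 other cell types in each library of the 6 groups (x axis, naive in blue and tolerized in orange), with marker shapes for replicate numbers. The macrophage sum is highest in NAg replicate 1 at 2356 and lowest in NPI, where B cell and dendritic cell sums overlap those of N0 only through N0 replicate 1.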

How the data were processed

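CD4+ T cells were enriched from spleens by depletion of other cells and sequenced after removal of ribosomal RNA, in 18 libraries. Alignment by the authors used TopHat2 2.1.1 and mm9 (NCBIM37), and raw counts per Ensembl gene from HTSeq 0.9.1 were deposited without normalization. Symbols and positions came from a GENCODE annotation of NCBIM37 for 37205 of 37991 genes, and promoters from RefSeq on GRCm38.p6. Tests covered the genes whose normalized counts averaged 3 or more in any group, with edgeR 4.0.16 (TMM, robust quasi-likelihood F test, 6 group means, Benjamini-Hochberg over all tested genes) in R 4.3.3, and called at an adjusted p under 0.05. DESeq2 1.42.0 was an alternative. Ratios of reads pooled over a group, given where reads were few, have exact conditional intervals with 95% confidence, and a group without reads was set to a floor of 3 reads. Scripts were tested on simulated data. The 10 genes and all lists were chosen with earlier results of these data known. Named from the lists are up to 3 called genes with the largest change in each direction and comparison, genes that could not be tested, and the 8 genes nearest to C1q in profile with a mean of at least 20. Trf matched 2 identifiers and was left out. The values of 1 gene of the macrophage list are not reported here, and it stays in the counts. The 3 libraries of a group are biological replicates per the study's methods.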

Additional observations from a re-analysis of the deposited data

Results flagged for a closer look

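The response to Ag differed between naive and tolerized cells, by edgeR's test of the difference, for 7 of 29 named genes of the macrophage list and the heme and iron list. These genes were named for the largest called changes in the same data, and no share over all tested genes is given. The count is thus not a measure of how common such differences are. The log2 response of tolerized minus that of naive cells was -2.64 ± 0.82 (SE) for Cd14 (adjusted p = 0.0258), -3.45 ± 1.19 for Cd163 (adjusted p = 0.0439), -6.59 ± 2.30 for Marco (adjusted p = 0.044) and -2.44 ± 0.82 for Treml4 (adjusted p = 0.0349). It was -1.15 ± 0.19 for Tfrc (adjusted p = 0.00027), -0.51 ± 0.12 for Bach1 (adjusted p = 0.00407) and 1.13 ± 0.19 for Slc48a1 (adjusted p = 0.000136). Marco had no read in N0 and Cd163 had 3 in TAg, so the size of these 2 differences is uncertain. Without NAg replicate 1, an alternative chosen after seeing the data, the difference was -1.87 ± 0.62 for Cd14 (adjusted p = 0.0329), -1.25 for Tfrc, -0.56 for Bach1 and 1.19 for Slc48a1, all still called. It was not called for Cd163 (-2.11 ± 1.10, adjusted p = 0.197) or Treml4 (-1.89 ± 0.83, adjusted p = 0.116), and Marco no longer passed the low-count filter. Vcam1 was lower in every T0 library than in every N0 library (log2 -1.48), and higher in every TPI library than in every NPI library. The difference between these contrasts was not tested.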

How the results depend on the processing

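The 10 genes in NAg:N0 gave 2 calls, but 4 with DESeq2's size factors, 0 with library totals, 0 with the 2 groups alone, 1 with the replicate block and 0 to 8 without a library. Shares of all tested genes called under these settings are not given, here or for the lists below. The counts thus show only how far the calls depend on the setting. In TAg:T0 the 2 groups alone gave 1 in place of 0. Library totals moved the median of all tested genes to as low as -0.92 (TPI:T0), and that of the 10 genes to -3.42 in NPI:N0 and -1.61 in TPI:T0. Leaving out libraries gave medians of -1.50 to -0.70 in T0:N0, -3.11 to -1.50 in TAg:NAg and -1.45 to -0.33 in TPI:T0. For the macrophage list, the study's limits (2-fold, over 50 normalized counts) left 1 higher and 0 lower in NAg:N0, 1 and 0 in TAg:T0, 3 lower in TAg:NAg, 0 lower in TPI:NPI, 1 and 1 in NPI:N0, and 1 and 2 in TPI:T0. Library totals gave 3 higher and 6 lower in TAg:T0, 1 and 13 in NPI:N0, and 2 and 15 in TPI:T0. The 2 groups alone gave 4 lower in TAg:T0, 2 lower in T0:N0, 6 lower in TAg:NAg and 6 higher in TPI:NPI, DESeq2 gave 0 lower in TPI:NPI, and no low-count filter 0 lower in NAg:N0. Without a library, NAg:N0 had 6 to 11 higher and 0 to 2 lower, TAg:T0 3 to 6 and 1 to 3, T0:N0 1 to 2 higher, and 5 to 15 were lower in TAg:NAg, 0 to 1 in TPI:NPI and 4 to 9 in TPI:T0. For heme and iron, the study's limits left 2 lower in NAg:N0, 0 lower in TAg:T0, 0 and 0 in T0:N0, 1 and 1 in TAg:NAg, 0 and 0 in TPI:NPI, 1 lower in NPI:N0 and 2 lower in TPI:T0. Library totals gave 8 lower in TAg:T0, 1 lower in T0:N0, 7 higher and 2 lower in TAg:NAg, 6 lower in TPI:NPI and 12 lower in TPI:T0. Without a library, 2 to 4 were lower in TAg:T0, 1 to 4 in T0:N0, 3 to 5 in TAg:NAg and 1 to 3 in TPI:NPI, and 2 to 4 higher in TAg:NAg. Signs turned in NAg:N0 without a library for C1qa (-0.027 to 2.44), C1qc (-0.60 to 1.56), Csf1r (-0.48 to 1.05) and Slc40a1 (-1.18 to 0.35), and with library totals for Spic (-0.14). In TAg:T0 they turned for Vcam1 (replicate block 0.011, without a library -0.45 to 0.38), Spic (library totals -0.11), Hmox1 (library totals -0.15) and Cd5l (DESeq2 -0.000467, library totals -0.30, replicate block -0.034, without a library -0.68 to 0.52). The causes were not tested. Of 338 values that answer a comparison, 268 stayed close to those reported. Same-numbered libraries were not treated as paired in the main fit. Correlations of their deviations were -0.195 to 0.11 over 45 pairs, 2 of them over 0.1. These values do not settle whether such libraries share a harvest or batch, which the sample labels do not state. C1q rests on few reads in tolerized and PI libraries, which limits its ratios.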
